A study of Mus musculus with 88 samples.

Results

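Erythroid genes, the genes of the red blood cell lineage, were followed in whole blood of SNF1 mice, a cross of SWR and NZB that develops lupus nephritis with age. The 29 genes were listed by symbol, and each was read from 1 probe set that names no other gene, the brightest on average over the 88 arrays, as were all 17097 genes of the array. They comprised 3 globins, 4 genes of heme synthesis and iron uptake, 13 of the membrane and its skeleton, 5 transcription factors and signalling genes, and 4 enzymes and other genes. The study compared untreated female mice with mice given pristane, a hydrocarbon oil injected into the peritoneum of young adults before clinical signs, which brings lupus nephritis forward. Blood was taken at weeks 2, 4, 8, 12 and 14 after the injection, with age-matched untreated mice at each week. An 11th group of untreated mice had spontaneous disease at week 36, which is an age and not a time after injection, and was selected by proteinuria. No untreated group without disease was present at that age, so age and disease cannot be told apart there. Every group held 8 mice with 1 array each, 88 in all.

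Red cells arise from progenitors that respond to erythropoietin through its receptor, under transcription factors such as GATA1, TAL1 and KLF1. They fill with hemoglobin, build a spectrin skeleton under the membrane, lose the nucleus and enter the blood as reticulocytes, which still hold RNA and a transferrin receptor. Most erythroid RNA in whole blood therefore sits in reticulocytes and young red cells, while GATA1 and TAL1 also act in megakaryocytes, the source of platelets. In bulk blood, fewer cells of a type and less RNA per cell cannot be told apart.

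The values are log2 RMA signals, in which a difference of 1 is a 2-fold change. They ran from 0.74 to 13.75 over all probe sets. The arrays differed in spread, and mean interquartile ranges were 3.53 in untreated mice at week 14 and 3.45 in spontaneous disease, against 3.12 to 3.30 in the other groups. The labels give no plate or scan date, and no 2 arrays were identical (highest correlation 0.994). Genes are called here where the limma adjusted p was below 0.05, from 1 model of the 11 group means.

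Promoter sequences were searched for the words that erythroid factors bind. A RefSeq promoter (GRCm38.p6, the 250 bases before the gene start) was found for 22 of the 29 genes. Those of Hbb-b2, Slc4a1, Fech, Ank1, Car2, Car1 and Cldn13 were not matched. A GATA word (GATA with A or T before it and A or G after it, on either strand) was present in 13 of the 22, or 59.1%, against 27.1% of 27025 mouse promoters. CACCC, the word bound by KLF1 and related factors, was present on either strand in 18 of 22 (81.8%, against 51.3% of all promoters). Both words were present in 12 of 22 (54.5%, against 11.9%). The Hba-a1 and Hba-a2 promoters were identical over the 247 bases compared at a shift of 3 bases.

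Promoters are printed for 5 genes on which the results turn. Hba-a1 (chr11:32283422-32283671, plus strand) and Alas2 (chrX:150547167-150547416, plus strand) are shown for their signals near the top of the scale. Kel (chr6:41704326-41704575, minus strand) is shown for its low signal in untreated mice at week 14, and Tal1 (chr4:115056176-115056425, plus strand) and Epor (chr9:21963577-21963826, minus strand) for their rise under pristane. Each is read 5′ to 3′ on the gene's strand, with the GATA and CACCC words of both strands in capitals, so that TTATCT and GGGTG are words of the opposite strand.
Hba-a1: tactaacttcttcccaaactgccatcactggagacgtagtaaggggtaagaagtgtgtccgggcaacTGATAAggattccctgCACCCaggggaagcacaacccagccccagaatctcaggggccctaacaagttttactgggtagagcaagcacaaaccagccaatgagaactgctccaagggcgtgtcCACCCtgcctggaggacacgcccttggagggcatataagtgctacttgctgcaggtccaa
Alas2: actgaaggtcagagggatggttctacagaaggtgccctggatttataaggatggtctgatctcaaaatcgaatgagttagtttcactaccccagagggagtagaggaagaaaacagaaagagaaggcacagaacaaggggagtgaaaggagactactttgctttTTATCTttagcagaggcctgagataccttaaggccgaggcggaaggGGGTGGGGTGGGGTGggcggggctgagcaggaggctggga
Kel: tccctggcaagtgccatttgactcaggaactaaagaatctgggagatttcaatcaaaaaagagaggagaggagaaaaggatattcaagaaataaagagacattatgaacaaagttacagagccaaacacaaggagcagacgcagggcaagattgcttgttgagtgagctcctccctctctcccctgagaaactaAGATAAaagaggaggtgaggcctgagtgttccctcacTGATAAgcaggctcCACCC
Tal1: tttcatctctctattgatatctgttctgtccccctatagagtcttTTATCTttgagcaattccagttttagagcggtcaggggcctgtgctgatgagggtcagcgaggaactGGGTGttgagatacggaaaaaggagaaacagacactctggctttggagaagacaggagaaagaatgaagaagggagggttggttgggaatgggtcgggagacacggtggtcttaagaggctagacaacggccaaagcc
Epor: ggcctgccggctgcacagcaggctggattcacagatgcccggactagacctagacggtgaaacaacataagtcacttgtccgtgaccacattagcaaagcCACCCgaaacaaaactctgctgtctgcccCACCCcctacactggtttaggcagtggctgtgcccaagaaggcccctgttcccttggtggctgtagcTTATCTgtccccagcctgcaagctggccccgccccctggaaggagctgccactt

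The GATA word nearest to the start lay 19 bases before it in Kel, 54 in Epor, 86 in Alas2, 183 in Hba-a1 and 205 in Tal1. Kel held 2 GATA words and the others 1 each. In Alas2, 3 CACCC words of the opposite strand followed each other directly. These matches describe letters in a window and were not tested as binding sites.

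Most of the 29 genes shared 1 course over the groups. Their signals, averaged after centring each gene, were lowest in untreated mice at week 14 (-0.84 ± 0.55, SD, n = 8) and highest in pristane mice at week 2 (0.53 ± 0.36). Spontaneous disease lay between (-0.44 ± 0.57). Untreated mice at week 12 (-0.02 ± 0.42) and pristane mice at week 14 (-0.07 ± 0.66) had means close to the average. The median of pristane mice at week 14 was lower than their mean, at -0.29, against 0.06 in untreated mice at week 12. Replicates 7 (1.20) and 4 (0.51) raised that pristane mean, so most pristane mice of week 14 were also below the average. Over the 11 groups 28 of 29 genes differed by the moderated F test, against 40.9% of all genes, with Hbb-b2 the exception (adjusted p = 0.89). Over the 5 untreated weeks 11 of 29 differed, against 11.8% of all genes. Over the 5 pristane weeks 6 of 29 differed (Hba-a1, Hba-a2, Fech, Tspan33, Tal1 and Car1), against 10% of all genes.

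**Figure D1:**
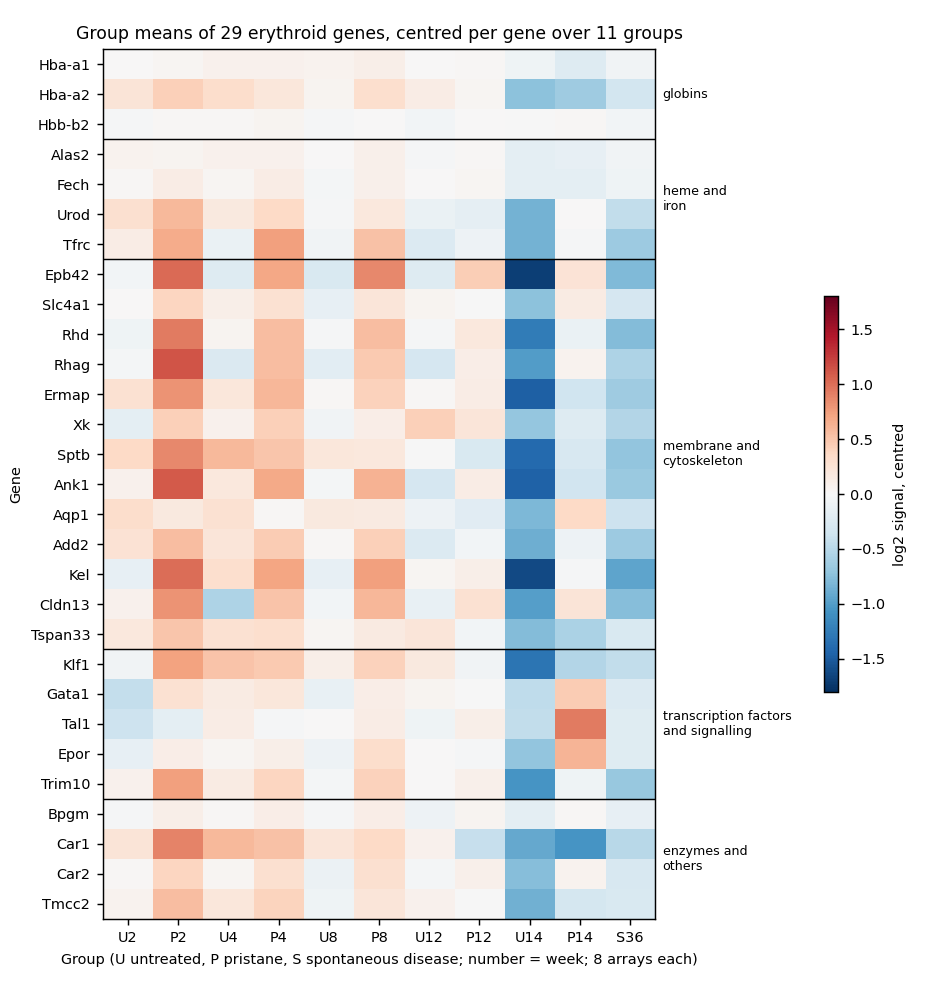
Heat map of the group mean log2 signal of each of the 29 genes, centred per gene over the 11 groups of 8 arrays (columns; U untreated, P pristane, S spontaneous disease, with the week), with genes in rows by class. The column of untreated week 14 is blue for nearly all genes, while Tal1, Epor and Gata1 are red in pristane week 14 and Hba-a2 and Car1 are blue in both week 14 groups.

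At week 14, 10 of the 29 genes were higher in pristane than in untreated mice, where 12.7% of all genes were higher, and none was lower, where 9.72% of all genes were. The 10 were 6 membrane genes, the 3 regulators Tal1, Epor and Gata1, and Car2. By more than 2-fold 7 were higher, against 1.87% of all genes. The median log2 difference was 0.86 over the 29 genes and 0.12 over all genes. Of the 29 differences 27 were above 0, while 36.5% of all genes were below 0. Leaving out 1 array moved the count between 6 and 18. It was 6 without pristane replicate 7 (10% of all genes in that fit), which lost Ermap, Kel, Cldn13 and Car2. It was 16 without pristane replicate 2 or 3 (15% and 13.5%) and 18 without untreated replicate 8 (15.7%). Tal1, Epor, Aqp1, Gata1, Slc4a1 and Epb42 were called in all 16 such fits, Cldn13 in 15, Kel in 14, Car2 in 13 and Ermap in 7. Pristane replicate 7 had the highest erythroid mean of its group (1.20) and untreated replicate 8 the highest of its own (0.17).

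This comparison rests on the untreated mice of week 14, whose erythroid signals were low. Against untreated mice of week 12, pristane mice of week 14 had 2 of 29 genes higher (Tal1 and Epor, against 6.53% of all genes) and 2 lower (Hba-a1 and Hba-a2, against 3.87%), and the median difference was -0.04. Against the mean of untreated weeks 2 to 12, a control chosen after seeing the data, 3 were higher (Tal1, Epor and Gata1, against 12.6%) and 6 lower (Hba-a1, Hba-a2, Alas2, Fech, Tspan33 and Car1, against 7.09%). Tal1 and Epor were thus called higher against each of these 3 controls, while the 6 membrane genes and Car2 were called against untreated week 14 alone. The 3 comparisons share the pristane arrays. Gata1 was not called against week 12 (0.41, adjusted p = 0.219).

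**Figure D2:**
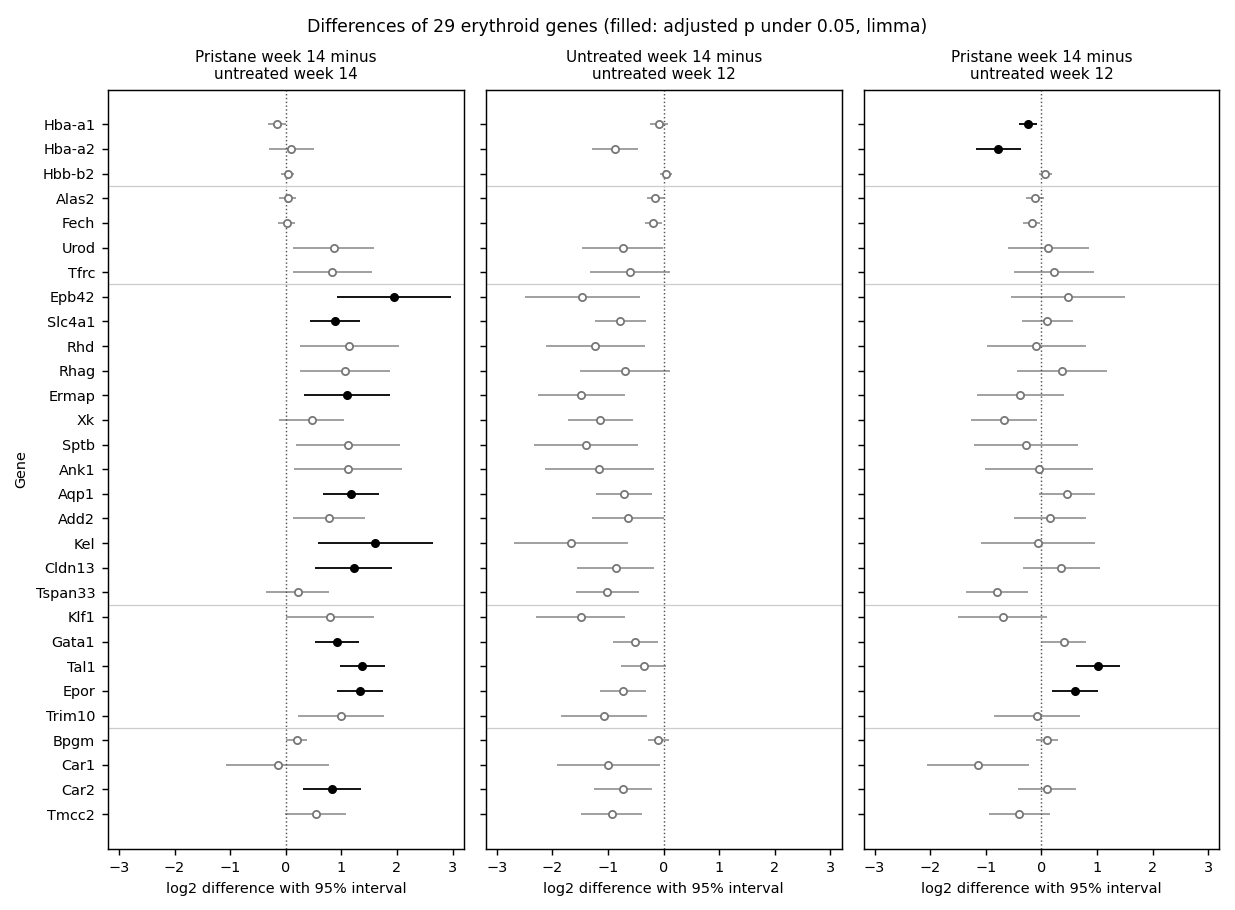
Log2 differences (points) with 95% intervals (lines) of the 29 genes in 3 comparisons that share groups, filled where adjusted p was under 0.05 with limma. Membrane genes lie right of 0 in the left panel, left of 0 in the middle panel and around 0 in the right panel, where Tal1 (1.02) and Epor (0.60) remain to the right.

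Tal1, a transcription factor of blood stem cells, erythroid cells and megakaryocytes, rose most clearly. Its signal ran from 7.42 to 8.57 in untreated mice at week 14 (median 7.90) and from 8.34 to 9.86 in pristane mice (median 9.44). The groups overlapped by a single array, with 7 of 8 pristane arrays above every untreated one. The difference was 1.38 (95% interval 0.97 to 1.78, adjusted p = 2.43e-07). In pristane mice Tal1 also rose from week 12 to week 14, by 0.84 (adjusted p = 0.00825), and 6 of 8 arrays of week 14 lay above all of week 12 (7.56 to 9.05). Tal1 means at weeks 2, 4, 8 and 12 lay between 7.99 and 8.48 in untreated mice and between 8.17 and 8.49 in pristane mice, and no difference between treatments was called at these weeks.

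Epor, the erythropoietin receptor, was dim. Its mean over the 88 arrays, 3.86, and that of Rhag lay under the median of all probe set means (3.91), so both were left out in the fit without dim probe sets, which therefore bears on neither. Its signal ran from 2.81 to 3.73 in untreated mice at week 14 (median 3.03) and from 2.96 to 5.11 in pristane mice (median 4.71). Again 7 of 8 pristane arrays lay above all untreated arrays, and replicate 2 lay within them. The difference was 1.33 (0.92 to 1.74, adjusted p = 9.08e-07). In the earlier weeks Epor means were 3.72 to 3.9 in untreated and 3.85 to 4.17 in pristane mice, so that the untreated level at week 14 was the lowest of the 11 group means and the pristane level the highest.

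Gata1, the factor that drives most erythroid genes, ran from 7.01 to 8.5 in untreated and from 7.68 to 9.35 in pristane mice at week 14. The groups overlapped, with 5 of 8 pristane arrays above all untreated ones, and the difference was 0.91 (0.52 to 1.31, adjusted p = 0.000406). The other regulators had differences above 0 that were not called. Klf1, the activator of adult beta globin, differed by 0.79 (adjusted p = 0.144), and Trim10, a protein of terminal erythroid maturation, by 0.99 (adjusted p = 0.0532).

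In the membrane class all 13 differences were above 0 at week 14 (median 1.11) and 6 were called. Kel, the Kell blood group glycoprotein, ran from 4.01 to 7.86 in untreated mice (median 5.76) and from 5.85 to 9.73 in pristane mice (median 7.02), and from 6.23 to 8.28 in untreated mice at week 12 (median 7.88). The untreated arrays of week 14 were the lowest, with 6 of 8 below every untreated array of week 12. That difference, -1.67, was not called (adjusted p = 0.119). Of the pristane arrays of week 14, 3 of 8 lay above the median of untreated week 12. Kel differed between treatments by 1.61 (0.58 to 2.64, adjusted p = 0.0183), but by -0.06 against untreated week 12.

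Cldn13, a claudin of mouse erythroid cells, ran from 2.87 to 4.64 in untreated mice (median 3.44) and from 3.75 to 7.06 in pristane mice (median 4.58), with 4 of 8 pristane arrays above all untreated ones. Its difference was 1.22 (adjusted p = 0.00721). Over weeks 2 to 12 its means were 4.00 to 4.63 in untreated and 4.84 to 5.37 in pristane mice.

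Ermap, an erythroid membrane protein that carries the Scianna blood group, ran from 4.23 to 7.58 in untreated and from 5.55 to 7.81 in pristane mice at week 14. The groups overlapped widely, and the difference of 1.10 passed narrowly (adjusted p = 0.034) and was -0.38 against untreated week 12. Its means over weeks 2 to 12 were 7.10 to 7.35 in untreated and 7.22 to 7.89 in pristane mice, all above both groups of week 14.

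Epb42, a protein that ties the anion exchanger to the membrane skeleton, ran from 2.99 to 6.49 in untreated and from 5.51 to 8.19 in pristane mice, the largest difference of the 29 genes (1.94, adjusted p = 0.00387), while a second Epb42 probe set gave 0.54 (adjusted p = 0.45). Slc4a1, that anion exchanger (band 3), rose by 0.89 (adjusted p = 0.00271), from between 10.08 and 12.19 to between 12.03 and 12.80, while its dimmer probe set gave 0.38 (adjusted p = 0.163). Aqp1, the water channel, rose by 1.17, from between 6.5 and 7.95 to between 6.79 and 9.32 (adjusted p = 0.000358), with 5 of 8 pristane arrays above all untreated ones.

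The other membrane genes were not called. Rhag and Rhd, the Rh proteins, differed by 1.06 (adjusted p = 0.0511) and 1.14 (adjusted p = 0.057). Of the skeleton, Sptb (beta spectrin) differed by 1.12, Ank1 (ankyrin) by 1.11 and Add2 (beta adducin) by 0.78, with adjusted p from 0.0738 to 0.0911. Of the other probe sets, 1 of 2 was called for Ank1 (1.19, adjusted p = 0.00919, and 0.53, adjusted p = 0.0718) and 1 of 3 for Add2 (0.79, adjusted p = 0.0239, with 0.62 and 0.53 not called). Xk, the partner of Kel in the membrane, differed by 0.47, and Tspan33, a tetraspanin of erythroid progenitors and B cells, by 0.21 (adjusted p = 0.251 and 0.611).

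The globins gave no call against untreated week 14, where 2 of the 3 had signals near the top of the scale. Hbb-b2, a beta globin, lay between 13.32 and 13.72 on all 88 arrays, near the highest deposited value of 13.75, and Hba-a1, an alpha globin, between 12.70 and 13.75. Whether signals this high still follow the amount of RNA was not tested.

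Hba-a2, the second alpha globin copy, was lower on the scale, from 9.25 to 11.49 over all arrays. At week 14 it ran from 9.34 to 11.08 in untreated mice (median 10.11) and from 9.25 to 10.78 in pristane mice (median 10.30), against 10.34 to 11.22 in untreated mice at week 12 (median 11.04). Both groups of week 14 were low and overlapped, with a difference of 0.10 (-0.31 to 0.50, adjusted p = 0.762). In pristane mice Hba-a2 fell by 0.67 from week 12 to week 14 (adjusted p = 0.0476), a call lost in 9 of 16 fits that left out 1 array (pristane replicates 2, 3, 5 or 6 of week 14, or 4, 5, 6, 7 or 8 of week 12), and in untreated mice the difference was -0.87 (adjusted p = 0.0601). Its means at weeks 2 to 12 lay between 10.83 and 11.22 in both treatments.

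Hba-a1 also lay low in pristane mice at week 14. It ran from 13.14 to 13.53 in untreated and from 12.70 to 13.58 in pristane mice at week 14, a difference of -0.16 (adjusted p = 0.148), and against untreated week 12 pristane mice were lower by a called difference of -0.25 (adjusted p = 0.0379). Probe sets of alpha and beta globins can bind RNA of their copies, so the split between Hba-a1 and Hba-a2 is uncertain. Hbb-b2 differed by 0.03 between treatments at week 14, and by 0.30 and 0.36 in its other probe sets, lower on the scale, with none called (adjusted p = 0.717, 0.192 and 0.373).

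None of the 4 heme and iron genes was called at week 14. Alas2, the erythroid enzyme that starts heme synthesis, and Fech, which inserts the iron, differed by 0.03 and 0.01, both with signals near the top of the scale. Fech ran from 12.44 to 13.04 in untreated and from 12.60 to 13.04 in pristane mice, and its means at weeks 2 to 12 were 12.90 to 12.97 and 12.96 to 13.07. The 3 other Fech probe sets gave 0.16, 0.21 and 0.80, and none was called (lowest adjusted p = 0.119).

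Tfrc, the transferrin receptor through which young red cells take up iron, ran from 7.75 to 9.69 in untreated mice at week 14 (median 8.34) and from 8.20 to 11.24 in pristane mice (median 9.13). The groups overlapped, with 2 of 8 pristane arrays above all untreated ones, and the difference was 0.84 (0.12 to 1.55, adjusted p = 0.0837). Its means were 9.0 to 9.38 in untreated and 9.15 to 9.98 in pristane mice at weeks 2 to 12. Urod, a decarboxylase of heme synthesis, differed by 0.86 (adjusted p = 0.0811).

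Of the enzymes and other genes, Car2 (carbonic anhydrase 2) rose by 0.84 at week 14 (adjusted p = 0.0164), from between 10.56 and 12.22 to between 11.80 and 13.03. Car1 (carbonic anhydrase 1) had a difference below 0 that was not called. It ran from 2.76 to 5.45 in untreated (median 4.20) and from 2.71 to 7.01 in pristane mice (median 3.70), a difference of -0.15 (adjusted p = 0.844), and both groups of week 14 lay low against means of 5.13 to 5.63 in untreated and 4.64 to 5.95 in pristane mice before. Only pristane replicate 7 was high, since the next array lay at 4.66. Tmcc2, a transmembrane protein abundant in erythroid cells, ran from 8.99 to 10.72 in untreated and from 9.67 to 11.01 in pristane mice, a difference of 0.54 (adjusted p = 0.15), with earlier means of 10.62 to 10.90 and 10.69 to 11.25. Bpgm, which makes the phosphoglycerate that lowers the oxygen affinity of hemoglobin, differed by 0.19 (adjusted p = 0.142), while a second probe set was lower by a called difference of -0.60 (adjusted p = 0.0333).

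**Figure D3:**
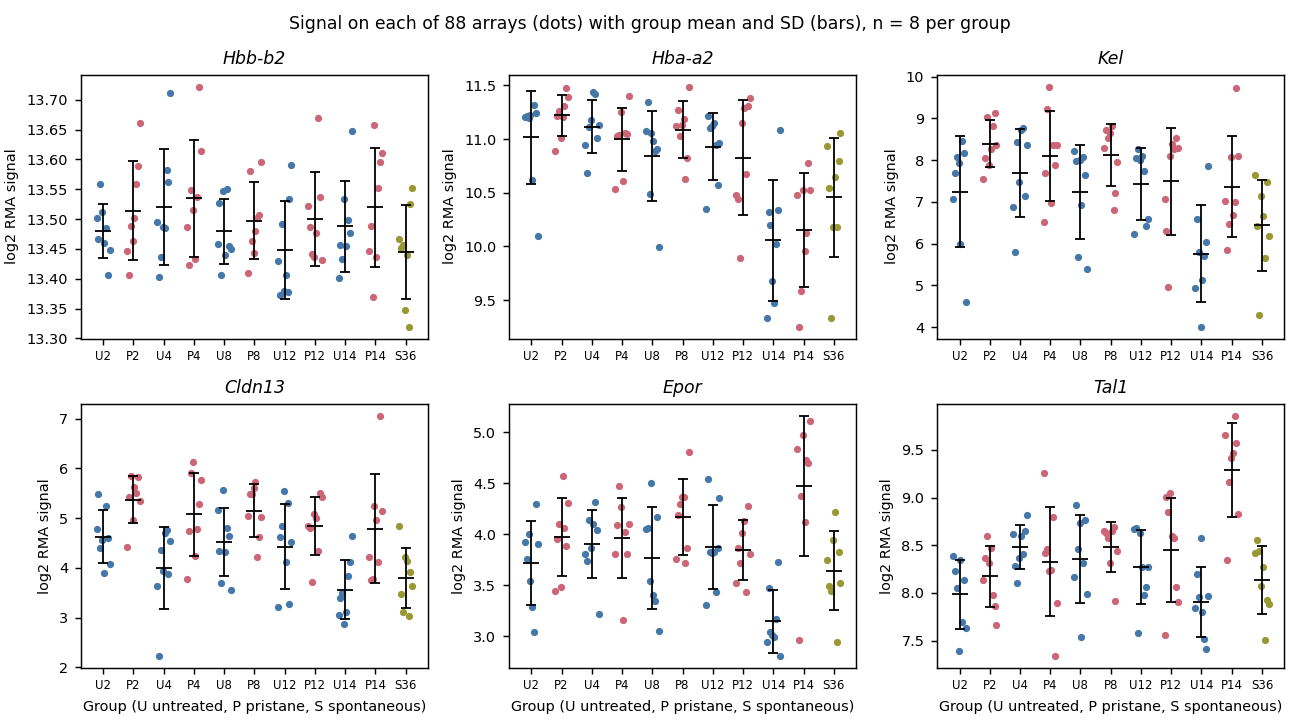
Log2 signal of 6 genes on each of the 88 arrays (dots), with the mean and SD of each group of 8 (bars), over the 11 groups on the horizontal axis. Hba-a2 is low in both groups of week 14, Kel and Cldn13 in untreated week 14, and Epor and Tal1 are high in pristane week 14, while Hbb-b2 stays between 13.32 and 13.72.

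Between untreated weeks 12 and 14, 28 of 29 differences were below 0, as were 56.5% of all genes, with a median of -0.78 (all genes -0.04). None was called with limma, where 0.0702% of all genes were, while 21 of 29 had an unadjusted p under 0.05 (17.0% of all genes). The differences closest to the threshold were those of Hba-a2 (-0.87, adjusted p = 0.0601), Klf1 (-1.49), Ermap (-1.48) and Xk (-1.14, each adjusted p = 0.0736). With arrays weighted by their agreement within groups 23 of 29 were called lower, against 9% of all genes in that fit. Without untreated replicate 8 of week 14 the count was 9 (0.93% of all genes), and without replicate 1 of week 12 it was 7 (0.714%). The direction was thus shared by nearly all of the 29 genes, most of which also moved together within groups. Whether the differences were called depended on the array weights and on single arrays. The same mice of week 14 were the controls above, so the 2 comparisons share those arrays.

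In pristane mice between weeks 12 and 14, Tal1 was higher (2.20% of all genes were) and Hba-a2 lower (1.32%), and the median of the 29 genes was -0.13. The pristane effect at week 14 was larger than at week 12 for 4 of 29 genes, where 0.877% of all genes had a larger effect. They were Epor (1.35, adjusted p = 0.00476), Tal1 (1.20, adjusted p = 0.0117), Aqp1 (1.28, adjusted p = 0.0364) and Gata1 (0.97, adjusted p = 0.0451). When each of the 32 arrays was left out in turn, Tal1 and Epor were called every time, while the call was lost 12 times for Aqp1 and 18 times for Gata1.

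Before week 14, few erythroid genes were called between pristane and untreated mice. At week 2, 27 of 29 differences were above 0 (median 0.49, all genes -0.03), while 54.1% of all genes were below 0. Gata1 alone was called with limma, at 0.71 (0.31 to 1.11, adjusted p = 0.0285), where 2.29% of all genes were called higher. Gata1 ran from 6.98 to 8.48 in untreated mice (median 7.75) and from 7.80 to 8.80 in pristane mice (median 8.55) at that week, with 4 of 8 pristane arrays above all untreated ones. The call was lost in 7 of 16 fits that left out 1 array (pristane replicates 3, 5, 6 or 7, or untreated replicates 2, 5 or 8). Untreated weeks 4 and 12 lay above untreated week 2 for Gata1, by 0.58 and 0.49. Neither was called (adjusted p = 0.652 and 0.268), but all 8 arrays of each lay above the week 2 median. Pristane week 2 was not tested against these weeks. In all, 8 of the 29 genes had an unadjusted p under 0.05 at week 2 (17.1% of all genes). With the Actb measure below as a covariate, chosen after seeing the data, 9 were called higher (3.59% of all genes). No gene was called at weeks 4, 8 and 12, where limma called 2.98%, 2.63% and 3.77% of all genes, and 2, 1 and 0 of the 29 had an unadjusted p under 0.05, against 13.4%, 13.3% and 15.2% of all genes. Their median differences at these weeks were 0.17, 0.28 and 0.03. Between pristane weeks 2 and 12, 28 of 29 differences were below 0 (median -0.55), as were 49.7% of all genes. None was called, against 1.23% of all genes, and 6 had an unadjusted p under 0.05 with limma (12.4% of all genes).

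In spontaneous disease no erythroid gene was called against untreated week 14, nor was any gene of the array (0%), and 4 of 29 had an unadjusted p under 0.05 with limma (3.47% of all genes). Of the 29 differences 28 were above 0 (median 0.42), while 45.1% of all genes were below 0. Against the mean of the 5 untreated groups all 29 were below 0 (median -0.33), as were 56.6% of all genes. None was called, against 1.41% of all genes, and 2 had an unadjusted p under 0.05 with limma, against 16.5%. Pristane mice at week 14 were higher than mice with spontaneous disease for 3 of 29 genes, where 5.59% of all genes were higher. These were Tal1 (1.15, adjusted p = 3.9e-05), Epor (0.83, adjusted p = 0.00424) and Gata1 (0.70, adjusted p = 0.0143), with 7, 6 and 7 of 8 pristane arrays above all 8 arrays of spontaneous disease.

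Within groups most of the genes moved together from mouse to mouse. After removing group means, the correlation over 88 arrays with the mean of the others was 0.95 for Kel and Epb42, 0.94 for Rhd and Ank1 and 0.88 for Klf1 and Hba-a2. It was 0.52 for Gata1, 0.48 for Epor and 0.39 for Hbb-b2, and -0.02 for Tal1. Arrays of a group share a treatment and a week, and all share the normalisation, so these values are a description.

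**Figure D4:**
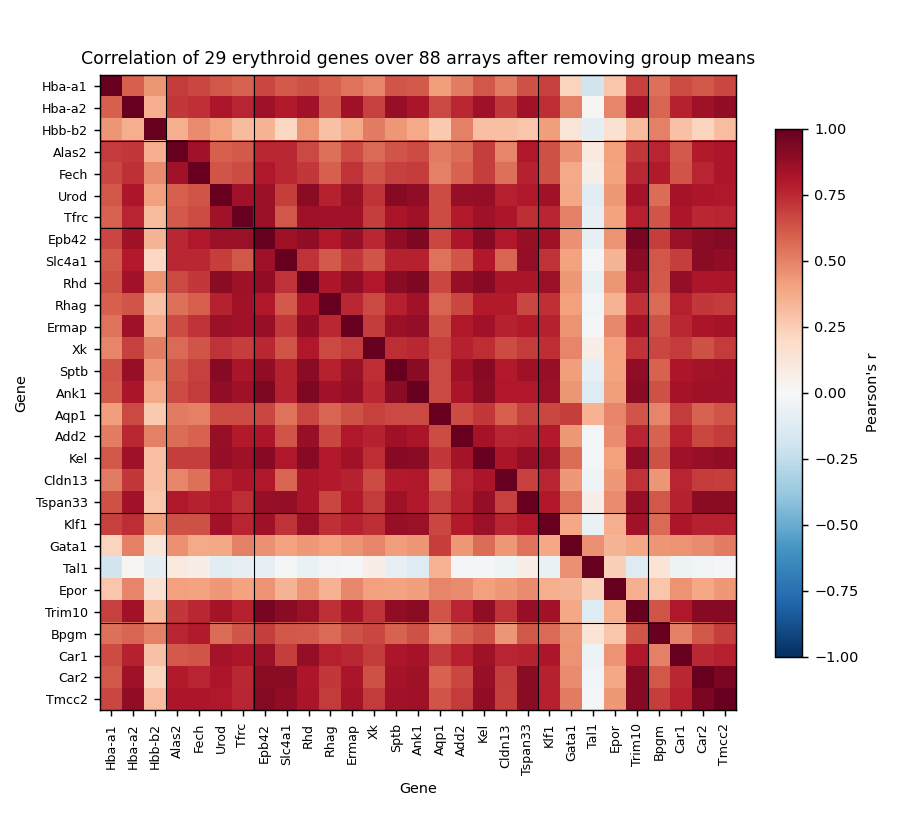
Pearson correlations between the 29 genes over the 88 arrays after removing group means, from -1 (blue) to 1 (red), ordered by class. Nearly the whole square is red, with pale rows and columns for Tal1 and, less so, Epor, Gata1 and Hbb-b2.

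Of genes outside the list, those most like the mean of the 29 over the 88 arrays were Metap2 (r = 0.965), 5430401H09Rik (0.962), Txnrd2 and Xpo7 (0.955), Tspan8 (0.954), Cmas (0.953), Nt5c3, 1300017J02Rik and Smox (0.952) and Cd59a (0.951). They were picked for this correlation, so their group means follow the erythroid mean by choice. At week 14 their differences between treatments were 0.76 to 1.35, and between untreated weeks 12 and 14 they were -0.95 to -1.66, none of the latter called.

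Array measures and the markers of some other cells moved with the erythroid mean. The erythroid mean correlated with the interquartile range of the array (r = -0.78, Spearman's rho = -0.80, -0.77 without the 2 farthest arrays), and within groups at -0.72, below 0 in each of the 11. It correlated with the log2 difference of the 3′ and 5′ control probe sets of Actb, a measure of RNA quality (r = -0.64, rho = -0.58, -0.56 without the 2 farthest, -0.62 within groups). That Actb measure was 1.52 ± 0.31 in untreated and 1.35 ± 0.24 in pristane mice at week 14, against 1.24 ± 0.20 in untreated mice at week 12. The same difference for Gapdh (r = -0.52 with the erythroid mean, rho = -0.48, -0.46 without the 2 farthest) had the other order at week 14, with 2.02 ± 0.19 in untreated and 2.13 ± 0.38 in pristane mice, against 1.8 ± 0.27 in untreated mice at week 12. With the interquartile range as a covariate, 6 of 29 genes were called at week 14, 5 higher (10.4% of all genes in that fit) and 1 lower (5.22%), which was Hba-a1 (-0.25, adjusted p = 0.0166). Tal1 (1.44), Epor (1.10), Aqp1 (0.81), Gata1 (0.77) and Slc4a1 (0.58) were called in that fit, and Epb42 (0.97), Kel (0.73), Cldn13 (0.65), Car2 (0.47) and Ermap (0.30) were not. How the array measures come to move with the erythroid genes was not tested.

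**Figure D5:**
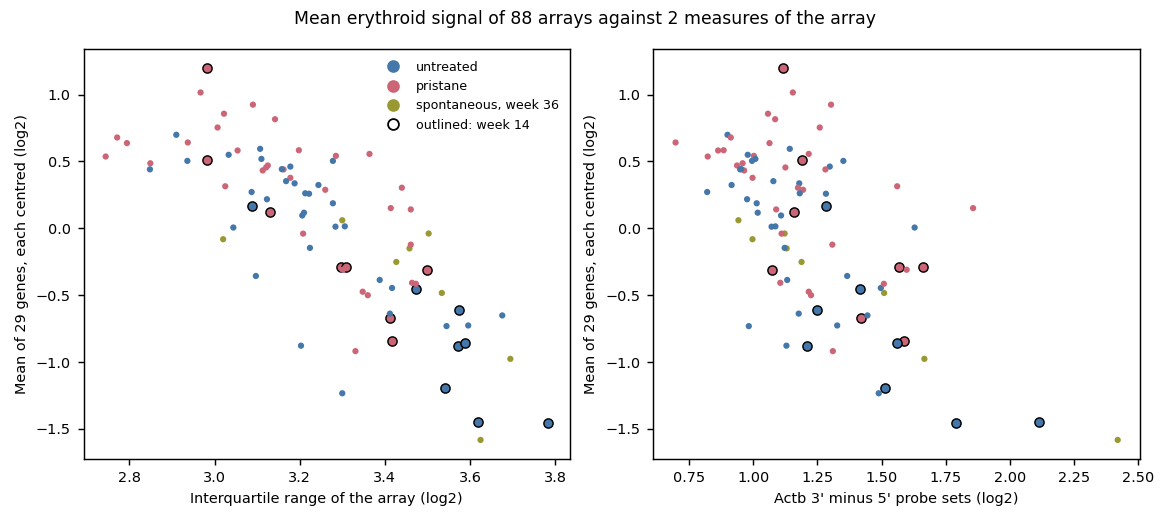
Mean of the 29 genes, each centred (vertical axis, log2), on the 88 arrays against the interquartile range of the array (left) and the Actb 3′ minus 5′ difference (right), coloured by treatment, with week 14 outlined. The mean falls along both axes (r = -0.78 and -0.64), and most untreated arrays of week 14 lie at the lower right.

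All 9 measured platelet markers, of 10 listed, were higher in pristane mice at week 14 (median 1.30), where their mean signal was 10.7 ± 0.31 against 9.69 ± 0.24 in untreated mice (SD, n = 8), and 7 of 9 were higher against untreated week 12. Within groups, the platelet mean correlated with Tal1 at 0.60, Aqp1 at 0.49, Gata1 at 0.45 and Epor at 0.29, and with the erythroid mean at 0.01. In single groups this last value ran from -0.77 to 0.65 and was below 0 in 6 of the 11. The part of platelets in the rise of Tal1, Epor, Aqp1 and Gata1 was not tested. Cell cycle markers followed the erythroid mean (r = 0.96, 0.94 within groups), and 2 of 7 measured were higher at week 14. Neutrophil markers were higher in pristane mice in 6 of 7 at week 14, and in 7, 7, 6 and 7 of 7 at weeks 2, 4, 8 and 12. The neutrophil mean correlated with the erythroid mean at r = 0.18 (-0.15 within groups, below 0 in 7 of the 11). Markers of B cells (3 of 4 measured), T cells (2 of 5) and monocytes (2 of 5) were lower in pristane mice at that week. Their mean signals correlated with the erythroid mean at r = -0.57, -0.46 and -0.61 (rho = -0.58, -0.44 and -0.59, and r = -0.56, -0.43 and -0.58 without the 2 farthest arrays), below 0 in 11, 11 and 10 of the 11 groups. The monocyte mean was 8.14 ± 0.31 in untreated mice at week 14 (SD, n = 8), 7.57 ± 0.47 in pristane mice and 7.37 ± 0.44 in untreated mice at week 12. The part of these cells in the erythroid results was not tested.

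Of 68 further erythroid genes, 55 were measured. At week 14, 17 of 55 were higher and 3 lower in pristane mice (median 0.31), against 12.7% and 9.72% of all genes. Against untreated week 12, 8 of 55 were higher and 4 lower, where 6.53% and 3.87% of all genes were. Those with the largest moderated t were Nfe2 (1.36, adjusted p = 6.81e-09), Gfi1b (1.17, adjusted p = 2.76e-06) and Gypc (1.12, adjusted p = 0.000113), which encode 2 factors of erythroid cells and megakaryocytes and glycophorin C. With the lowest t were Bcl11a, the repressor of fetal globin (-0.97, adjusted p = 0.00349), Stat5a (-0.52, adjusted p = 0.0353) and Add1 (-0.39, adjusted p = 0.0309). Between untreated weeks 12 and 14 none of the 55 was called (median -0.36), against 0.0702% of all genes. An unadjusted p under 0.05 with limma was found for 26 of them, against 17% of all genes. Sox6 (-1.58), Hagh (-1.26) and Cd59a (-1.13) had the lowest adjusted p there (0.0736 each), and Stat5a (0.41), Flvcr1 (0.43) and Myb (0.35) had differences above 0 that were not called.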

How the data were processed

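Whole blood was snap frozen, and the authors extracted RNA with Trizol and RNeasy columns with DNase, amplified it with the Ovation kit and hybridised it to HT MG-430 PM array plates. The deposited values are log2 RMA signals (RMA and Partek per the labels, versions not given in the sources used here). The 104 control probe sets of the 45141 were dropped and 45037 tested with limma 3.58.1 in R 4.3.3, with no filter on dim signals, in 1 model of 11 group means (77 residual and 5.81 prior degrees of freedom). Benjamini-Hochberg adjustment of p-values ran over all probe sets. The probe table paired 28898 probe sets with 1 gene and 551 with several, and did not list 15588. The number of arrays limits the precision. Members and lists were chosen with earlier results of these data known. Genes given in full were, per class, the pair with the largest F over groups and those running against their class. Alternatives were other scalings, covariates, array weights, fits, controls and arrays left out. The script was tested on simulated data.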

Additional observations from a re-analysis of the deposited data

Results flagged for a closer look

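Among the 10 genes described in full, 110 groups of 8 arrays were screened for a single array far from the rest. In these, 7 were found, close to the rate of about 1 in 20 that chance gives. The genes were read on the same arrays, so the 110 are not independent. Epor in pristane replicate 2 of week 14 lay at 2.963, below a nearest value of 4.122. Pristane replicate 7 of week 14 was far above its group for Cldn13 (7.056, next 5.249) and Car1 (7.007, next 4.658). Cldn13 in untreated replicate 2 of week 4 was 2.231 (next 3.63), and Tmcc2 in pristane replicate 6 of week 8 was 10.09 (next 10.86). Untreated replicate 8 of week 8 was low for Hba-a1 (13.22, next 13.45) and Fech (12.46, next 12.82). The pristane effect differed between weeks 14 and 12, tested as an interaction in limma, for Epor by 1.35, Aqp1 by 1.28, Tal1 by 1.20 and Gata1 by 0.974 on the log2 scale.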

How the results depend on the processing

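Of the alternative counts of called genes, 196 stayed within 1.5 times the reported count and 58 moved. The counts take both directions together, so a count that stayed need not hold the same genes. At week 14, 9 were called against the mean of untreated weeks 2 to 12, but 3 higher and 6 lower. At week 14 the count of 10, all higher, became 6 with the interquartile range as a covariate (5 higher, 1 lower). It became 4 with untreated week 12 as the control (2 higher, 2 lower). There Ermap (-0.38) and Kel (-0.0597) changed direction, as they did with the mean of untreated weeks 2 to 12 (-0.489 and -0.0355). At week 2 the count of 1 became 0 with quantile normalisation or the 2-fold rule, 5 with the interquartile range and 9 with the Actb covariate. At week 4 the count of 0 became 1 with quantile normalisation, the interquartile range or array weights, and 2 with the Actb covariate. Between untreated weeks 12 and 14 the count of 0 became 1 with quantile normalisation, 4 with dim probe sets left out, 5 with a fit of only the groups compared and 23 with array weights. Between pristane weeks 12 and 14 the count of 2 became 4 with quantile normalisation or the interquartile range, and 0 with only the groups compared or the 2-fold rule. The 4 differences of effect became 2 with the interquartile range or with only the groups compared. Epor and Rhag, under the median probe set mean, have no value with dim probe sets left out. The Actb covariate and the mean of untreated weeks 2 to 12 were chosen after seeing the data. Where the share of all genes in an alternative fit is not given above, its count cannot be set against the whole array. The cause was not tested.

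Leaving out 1 array gave 0 to 2 genes at week 2, 0 to 1 at week 4, 0 to 0 at weeks 8 and 12, 6 to 18 at week 14, 0 to 9 between untreated weeks, 1 to 4 between pristane weeks, 2 to 4 differences of effect and 0 to 0 in spontaneous disease.

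Replicate numbers are shared between groups, but same-numbered arrays correlated between -0.24 and 0.54, so they were not treated as pairs. Array measures did go with the number, since replicate 8 had the highest array median in most groups. It was 3.92 in untreated mice at week 14 (group mean 3.83) and 3.95 in pristane mice (group mean 3.87). Untreated weeks 2 and 8 were exceptions, at 3.91 and 3.90. What the number stands for in the handling of the arrays was not tested. With the replicate block the count was 13 at week 14 and 1 between untreated weeks 12 and 14, and all 17 single-gene calls kept their side of the threshold. The share of all genes called in that fit is not given here.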
